A study of Mus musculus with 11 samples.

Results

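CpG islands are short stretches of DNA rich in CpG sites, often at gene starts, and are usually free of methylation in normal tissue. Most CpG sites elsewhere in a mammalian genome are methylated. The DNA beside an island, its shore and then its shelf, is where methylation passes from one state to the other, and shores are known as places where methylation differs between tissues. The regions described here are the 5000 bp tiles that lie directly next to an island. A tile counted as flanking if it overlapped no island of the deposited island table while the 5000 bp window before or after it overlapped 1. It also had to lie on chromosomes 1 to 19 and to reach, on average, a coverage of 10 in each treatment group. This rule found 13961 of the 259716 tiles of the table, after removing 1610 of 15571 for coverage.

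Methylation was measured by reduced representation bisulfite sequencing (RRBS), which reads CpG sites near the cut sites of the enzymes MspI (CCGG) and TaqI (TCGA), in whole pancreas of wild-type C57BL/6N mice at postnatal day 0. The amphetamine group held 5 mice (3 female, 2 male), whose dams had received 10 mg/kg amphetamine on embryonic days 14.5, 15.5 and 16.5. The saline group held 6 mice (3 female, 3 male), so that the same 11 mice also gave a comparison of 6 females with 5 males. Whole pancreas mixes acinar, ductal, endocrine, vascular and blood cells, so a change of methylation within a cell type and a change of the cell mix cannot be told apart. No values per mouse were used here. Each value is the authors' mean of a group with the authors' SD, and with the group's lowest and highest mouse. Litters are not given, so p-values measure only the spread between these mice.

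Of the flanking tiles, 13287 had an island in 1 of the neighbouring windows and 674 had islands in both. They surrounded 10396 different islands, and 12069 tiles had reads in all 11 mice. The distance from the tile's edge to the nearest island had a median of 2316 bp (quartiles 1073 and 3625 bp). Exons covered part of 7115 tiles (51%), 2712 (19.4%) lay in introns of protein-coding genes without an exon, and 4134 (29.6%) were intergenic. A protein-coding gene start fell inside 692 of them. Mean coverage (taken to be the sum over all CpG sites within a tile) had a median of 78.7 in saline and 96.4 in amphetamine mice. Tiles farther from islands had 60.8 and 75, and tiles that hold an island 394 and 488. Just inside the coverage limit (10 to under 11 in the lower group), 154 tiles had a median saline methylation of 78.0%, and 149 tiles just outside it (9 to under 10) had 85.9%.

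The sequence of these tiles shows what a flank is. In the mm10 assembly a flanking tile held a median of 59 CpG sites (quartiles 46 and 74), between the 122 of a tile with an island and the 47 of a tile farther away. The ratio of observed to expected CpG was 0.218, 0.408 and 0.197 in the same order. CpG sites stood at 30.5 per 1000 bp in the first 250 bp outside an island, at 16.9 from 500 to 750 bp and at 12.2 from 1500 to 1750 bp, and stayed between 11.8 and 12.2 from there to 5000 bp. The cut sites CCGG and TCGA fell with them, from 4.81 to 1.84 per 1000 bp. The 300 bases facing the island are printed for 4 tiles from the forward strand of the reference, with each CpG in capitals. The first is a flank at 0% in all saline mice, the next pair are the flanks with the largest sex difference in each direction among those with a coverage of at least 30, reads in all 11 mice and sexes that did not overlap, and the last is the flank of the developmental gene Pdx1, added after its values were seen. Searching one strand finds CCGG and TCGA on both, as both words are palindromes. In all 13287 tiles with an island on 1 side, this end held a median of 3 CpG sites, a CCGG in 30.3% and a TCGA in 19.3%.
Kmt5c flank, chr7:4739701-4740000, 62 bp from its island: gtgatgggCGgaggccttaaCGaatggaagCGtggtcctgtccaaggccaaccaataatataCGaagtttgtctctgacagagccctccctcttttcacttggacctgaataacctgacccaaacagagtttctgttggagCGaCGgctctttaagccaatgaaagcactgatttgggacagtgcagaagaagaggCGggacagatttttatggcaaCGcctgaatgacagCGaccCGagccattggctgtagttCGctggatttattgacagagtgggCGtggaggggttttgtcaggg
Mrpl42 flank, chr10:95505001-95505300, 3027 bp from its island: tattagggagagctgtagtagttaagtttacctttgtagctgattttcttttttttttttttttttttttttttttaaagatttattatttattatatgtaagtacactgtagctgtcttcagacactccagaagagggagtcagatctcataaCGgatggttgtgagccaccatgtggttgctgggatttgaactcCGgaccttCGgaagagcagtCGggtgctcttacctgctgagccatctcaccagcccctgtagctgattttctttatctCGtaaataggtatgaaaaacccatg
Vrk3 flank, chr7:44744701-44745000, 3553 bp from its island: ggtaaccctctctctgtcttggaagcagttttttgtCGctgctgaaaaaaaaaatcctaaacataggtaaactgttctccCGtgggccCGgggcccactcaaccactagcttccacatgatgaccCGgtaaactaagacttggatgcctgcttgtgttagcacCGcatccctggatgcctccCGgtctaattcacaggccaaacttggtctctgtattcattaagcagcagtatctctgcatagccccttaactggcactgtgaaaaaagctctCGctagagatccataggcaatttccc
Pdx1 flank, chr5:147275001-147275300, 179 bp from its island: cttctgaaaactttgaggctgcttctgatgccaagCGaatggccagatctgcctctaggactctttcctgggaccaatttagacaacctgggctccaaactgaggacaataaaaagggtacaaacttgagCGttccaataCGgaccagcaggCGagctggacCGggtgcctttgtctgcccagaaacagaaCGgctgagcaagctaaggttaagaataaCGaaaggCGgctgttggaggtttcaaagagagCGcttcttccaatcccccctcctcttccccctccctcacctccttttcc

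These windows held 12 CpG sites at Kmt5c, 5 at Mrpl42, 7 at Vrk3 and 9 at Pdx1. Kmt5c and Pdx1 are flanks that start within 200 bp of their islands, and their ends are still dense in CpG. CCGG occurred once in the Mrpl42 and Pdx1 windows and 3 times in the Vrk3 window, and not in the Kmt5c window. TCGA was in none of them. The deposited values are means over a whole tile, so which of these CpG sites had reads is not known.

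Flanking tiles were mostly methylated. Their median level in saline mice was 78.0% (quartiles 61.9% and 87.9%), beside 6.44% for tiles with an island and 84.5% for tiles farther away. Of the flanking tiles, 901 (6.45%) lay under 20%, 6725 (48.2%) between 20% and 80% and 6335 (45.4%) above 80%. For the tiles farther away these shares were 1.65%, 35.7% and 62.7%. The same order held in the independent amphetamine mice, with medians of 78.2%, 6.39% and 84.3%. Values per mouse would be needed to test a difference between kinds of tile, so these are descriptions. The plot of levels by kind of tile shows the flanks as a broad peak with a low tail.

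**Figure D1:**
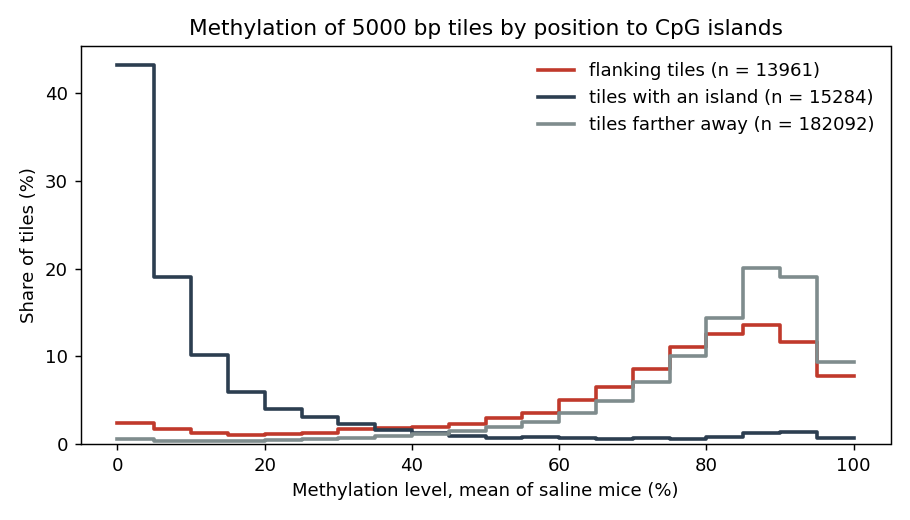
Distribution of the methylation level (x axis, mean of saline mice, %, bins of 5 points) for flanking tiles, tiles with an island and tiles farther away, as a share of the tiles of each kind (y axis, %). Flanking tiles peak below the tiles farther away and 6.45% of them lie under 20%, where 78.4% of the tiles with an island lie.

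Levels were lowest for tiles starting within 500 bp of an island and changed little beyond 1000 bp. Tiles whose edge lay under 500 bp from the island had a median of 64.3% (quartiles 32.1% and 82.3%), and 18% of them lay under 20%. At 500 to under 1000 bp the median was 76.7%, and 7.47% of tiles lay under 20%. From 1000 to under 4000 bp medians stood between 78.2% and 79.3%, and from 4000 bp on the median was 80.6%, still below the 84.5% of the tiles farther away. Amphetamine mice gave 65.4% for the nearest tiles and 80.5% for the farthest. A tile overlaps its distance class only at its near edge, so each value averages 5000 bp that begin there.

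**Figure D2:**
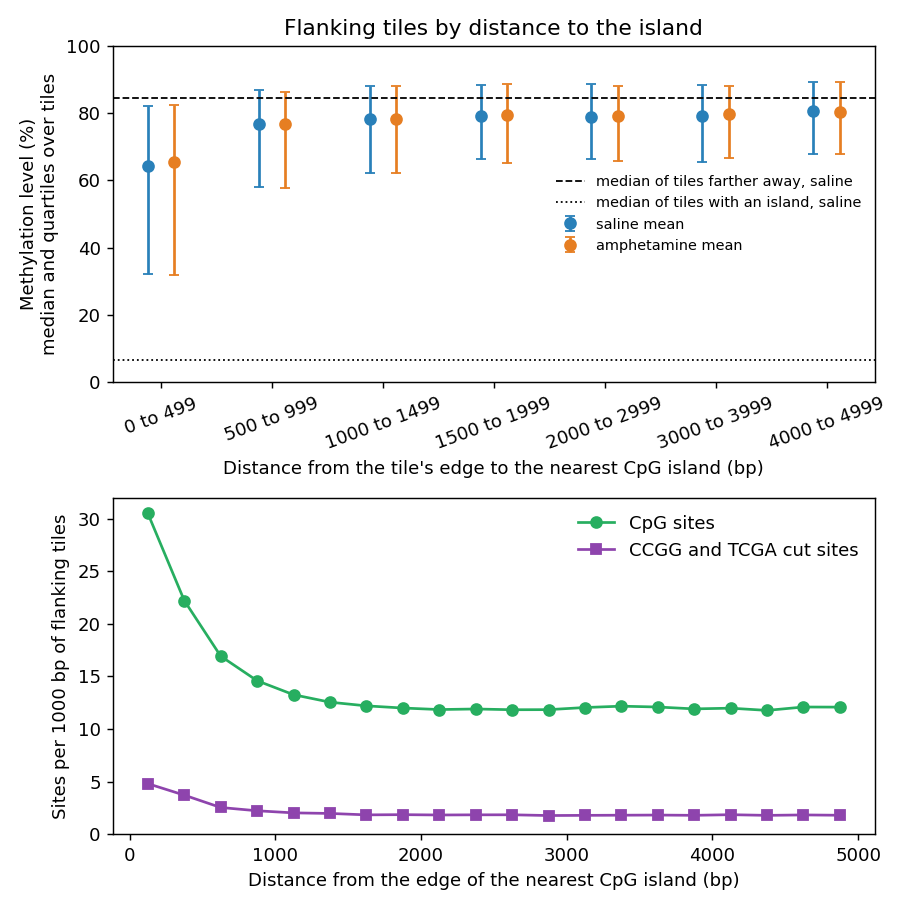
Upper panel, methylation level of flanking tiles (y axis, %, points are medians and bars quartiles over tiles) by distance from the tile's edge to the nearest island (x axis, bp) for the saline and amphetamine means, with the medians of the other kinds of tile as lines. Lower panel, CpG sites and CCGG or TCGA cut sites per 1000 bp (y axis) by distance from the island's edge (x axis, bp, bins of 250 bp) in the tiles with an island on 1 side; the level is lowest (64.3% in saline) and CpG sites are densest (30.5 per 1000 bp) next to the island.

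Flanks with more CpG sites were less methylated. The median was 83.4% in 233 tiles with 25 CpG sites or fewer, 77.1% in those with 51 to 75 and 69.3% in the 797 tiles with over 100, of which 22.3% lay under 20%. Tiles farther away did not follow this order at its upper end, with 87.5% in those of over 100 CpG sites. The order by CpG number was seen both near to and away from the island. Within 500 bp of the island the median went from 70.0% at 26 to 50 CpG sites to 39.5% at over 100, and at 500 bp and more from 81.5% to 72.2%. By the cut sites, tiles with 3 or fewer CCGG had a median of 80.7% and those with 10 or more 72.3%, whereas TCGA number made little difference (78.9% with 0 or 1, 77.9% with 6 or more).

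Flanks of methylated islands were slightly higher than flanks of unmethylated islands. The nearest island had a median methylation of 2.06% in saline, and the median flank lay 72.8 percentage points above its island. Flanks of islands over 80% methylated had a median of 82.2%, beside 77.8% for flanks of islands under 20%. The 2 sides of an island were only loosely alike. For 3565 islands with a flank on each side, the levels of the sides correlated with a Pearson r of 0.138 (Spearman rho 0.109), and their median absolute difference was 15.5 percentage points. Both sides were under 20% at 26 islands, and at 132 islands 1 side was under 20% and the other over 80%. These correlations are across islands within the same libraries and share their coverage and base composition.

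Flanks on the gene's side of an island were slightly more methylated than flanks upstream. The side was set by the direction of the gene, without checking that the tile lay inside it. By annotation, all flanks with an exon had a median of 79.1% in saline. Intronic flanks without an exon had 76.5% and intergenic flanks 77.1%. Where the nearest island held a protein-coding gene start, flanks on the gene's side (downstream) had a median of 80.2% and upstream flanks 77.6%. By distance the medians were 64.9% downstream and 65.0% upstream under 500 bp, 82.0% and 76.2% at 1000 to under 1500 bp, 83.3% and 77.4% at 1500 to under 2000 bp, and 80.5% and 78.5% at 3000 to under 4000 bp. At 1890 islands with both, the downstream flank was the higher in 991 (52.4%) in saline and in 966 (51.1%) in amphetamine mice, with median differences of 1.23 and 0.60 percentage points. Flanks of islands that held gene starts in both directions had the highest median of these classes, 82.5%. Flanks of islands without a protein-coding gene start had 76.4%, and flanks that themselves held a gene start 60.4%.

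Low methylation at a flank was found again in the other group of mice. Of the 901 flanks under 20% in saline mice, 762 (84.6%) were also under 20% in the separate amphetamine mice. Of the flanks between 20% and 80%, 78.6% kept their class, and of those above 80%, 79.7%. The 762 flanks low in both groups had a median of 75 CpG sites. Of them, 38.7% lay within 500 bp of the island, against 13.1% of all flanking tiles. A gene start lay in 126 of them (16.5%), against 4.96% of all flanking tiles. Over all 13961 flanks the amphetamine and saline means correlated with a Pearson r of 0.905 (Spearman rho 0.810), with a median absolute difference of 5.02 percentage points.

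The lowest flanks with a coverage of at least 100 in both groups and a named gene lay at Mkx, Kmt5c and Gypc. At Kmt5c (listed as Suv420h2, a methyltransferase of histone H4), the intergenic tile chr7:4735001-4740000 upstream of the gene start was at 0% in each of the 6 saline mice and at 0.43% ± 0.71 (SD, n = 5), 0 to 1.62%, in amphetamine mice. At the homeobox gene Mkx, chr18:7005001-7010000 was at 0% in all 6 saline mice and at 2.82% ± 3.88 (n = 5), highest 9.23%, in the other group. The tile beside Gypc, which encodes a red cell membrane glycoprotein, was also at 0% in all 6 saline mice. All of these began within 100 bp of an island. The least covered saline mouse had a coverage of 4 at Kmt5c, 19 at Mkx and 68 at Gypc.

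The highest flanks lay farther out, inside genes. At Arid4a, a chromatin protein gene, the tile chr12:71020001-71025000, which is mostly intronic with 157 bp of exon, was at 100% in all 6 saline mice and at 94.2% ± 6.10 (n = 5), 85.2 to 100%, in amphetamine mice. Vamp4, a SNARE protein gene, had 99.8% ± 0.60 and 89.6% ± 16 in its tile chr1:162575001-162580000, and Abracl had 99.6% and 95.2%. These 3 tiles began between 2557 and 3444 bp from islands that were methylated at 0.85 to 3.91%.

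At 862 flanks the usual order was turned, with the flank below its island, and at 41 of them by over 50 percentage points. The clearest of these at high coverage, named after their values were seen, was chr17:23550001-23555000 in Casp16, whose flank had 0.30% ± 0.55 in saline (n = 6, mean coverage 707) and 1.86% ± 2.33 in amphetamine mice (n = 5), while the island 2751 bp away had 91.2%. Tmem259 had 5.22% beside an island at 89.7%, in a tile whose centre lay 1830 bp from a protein-coding gene start.

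The authors' SD between mice was larger over flanks than over tiles with an island, most of which lay under 10%. Over flanks with reads in all 6 saline mice, the median of the authors' SD was 11.2 percentage points (12392 tiles), beside 3.03 for tiles with an island and 10.1 for tiles farther away. The range from the lowest to the highest saline mouse exceeded 50 points in 18.2% of flanks, 2.43% of island tiles and 15.8% of tiles farther away. Spread followed the level. Flanks under 10% had a median SD of 4.07 points, those at 40 to 60% had 17.3 and those at 90% and over 6.54. At a matched coverage of 100 to 200, flanks at 40 to 60% had 15.5, tiles with an island 15.3 and tiles farther away 16.1. At 60 to 80% the values were 12.7, 14.2 and 13.2 in the same order, at 80 to 90% they were 9.70, 8.66 and 8.87, and under 10% they were 4.55, 3.19 and 4.25. At 10 to 20% they were 10.7, 7.43 and 10.0, at 20 to 40% 14.1, 10.4 and 14.2, and at 90% and over 6.04, 5.90 and 5.64. At matched level and coverage the flanks were therefore above the island tiles in each class under 40% and at 80 to 90%. They were below the island tiles at 60 to 80% and close to them at 40 to 60% and at 90% and over. Distance to the island moved the median SD little, from 11 points within 500 bp to 11.4 at 4000 bp and more.

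Coverage moved with the widest spread. The 1207 flanks with the largest saline SD (from 24.4 points) had a median coverage of 44.7, against 92.7 for all flanks with reads in every mouse. Of these 1207 tiles, 36.3% were also among the 1207 largest in amphetamine mice. Among flanks with a coverage of at least 30, the 4 largest saline SDs were 51.1 points at Mapre2, 50.6 beside Map2, 49.1 near Jak1 and 48.0 in Ralgps1. The Mapre2 and Jak1 values rest on 6 saline mice, with a coverage of 8 and 4 in the least covered mouse, the Map2 value on 5 and the Ralgps1 value on only 3 with reads. At Mapre2, Map2 and Jak1 the saline mice ran from 0 to 100%. The part of read number in these extremes was not tested.

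Flanks of genes for pancreatic transcription factors stood low. The list held 34 genes, of which 25 had a flank, with 37 tiles in all. Their median in saline was 44.4% and in amphetamine 39.2%, and 14 of 37 (37.8%) lay under 20%, beside 6.45% of all flanking tiles. Ptf1a, which drives acinar and early pancreatic fate, had both flanks low, at 2.04% and 2.40% in saline. Pdx1, the master regulator of pancreas and beta cells, had 11.4% in chr5:147275001-147280000, whose first bases are printed above. Onecut1 had 6.54% and 6.59% on its 2 sides, Foxa1 6.39% and Pax6 2.92%. Not all members were low, since Nkx6-1 had 95.5%, Nkx6-2 88.7% and Sox9, a progenitor and duct factor, 69.4%. Mafa, which marks mature beta cells, had 18.4% on one side of its island and 87.6% on the other.

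Hox clusters were lower still. These genes set position along the body axis, and 26 of the 39 listed had a flank. The 27 tiles had a median of 10.6% in saline and 9.85% in amphetamine mice, and 16 of them (59.3%) lay under 20%. The flank between Evx2 and Hoxd13, chr2:74660001-74665000, had 0.51%, and the tile beside Hoxc10 2.11% at a mean coverage of 1129. Hoxc9 and Hoxc13 flanks had 4.10% and 3.33%. Among the others, the highest were the Hoxd1 flank at 83.9%, a Hoxa3 tile at 68.2%, the Hoxb1 tile at 50% and the Hoxb2 tile at 44.1%. Since Hox genes lie close together, these tiles share neighbourhoods and islands and are not independent.

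Imprinted genes, which are expressed from 1 parental copy, had flanks like those of other genes. The 35 tiles of 25 genes had a median of 77.8%, and none lay under 20%. The Mcts2 island within H13 had 56.0%, and its flanks had 94.8% upstream and 90.5% downstream. The Nnat island had 55.7% and its upstream flank 72.3%, and the Nap1l5 island had 36.1% and its flank 60.2%. A tile inside Trappc9, at 34.4% beside an island of 53.3%, was lower than its island. Other flanks of imprinted genes under 50% were a tile at H13 (44.8%), a tile beside Blcap (41.0%), the Zdbf2 tile (34.5%) and a further Trappc9 tile (34.3%).

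The other lists lay nearer the level of all flanks. Flanks of islet hormone and secretion genes had a median of 78.1% (9 tiles of 7 genes), with a low one at Pyy and Ppy (3.77%). Serotonin system genes had 67.7% (9 tiles), glutamate receptors and scaffolds 71.8% (40 tiles), and writers, readers and erasers of DNA methylation 80.8% (36 tiles). Markers of mesenchyme and endothelium had 57.3% (10 tiles) and blood cell markers 62.8% (11 tiles). In the mesenchyme and endothelium list 3 of 10 tiles (30%) lay under 20%, and in the other lists of this paragraph 0 to 11.1%. None of the 24 acinar enzyme genes had a flanking tile linked to it. The plot of listed genes shows Hox flanks at the lowest median, while transcription factor flanks run over the range of the other lists, from 0 to 95.5%.

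**Figure D3:**
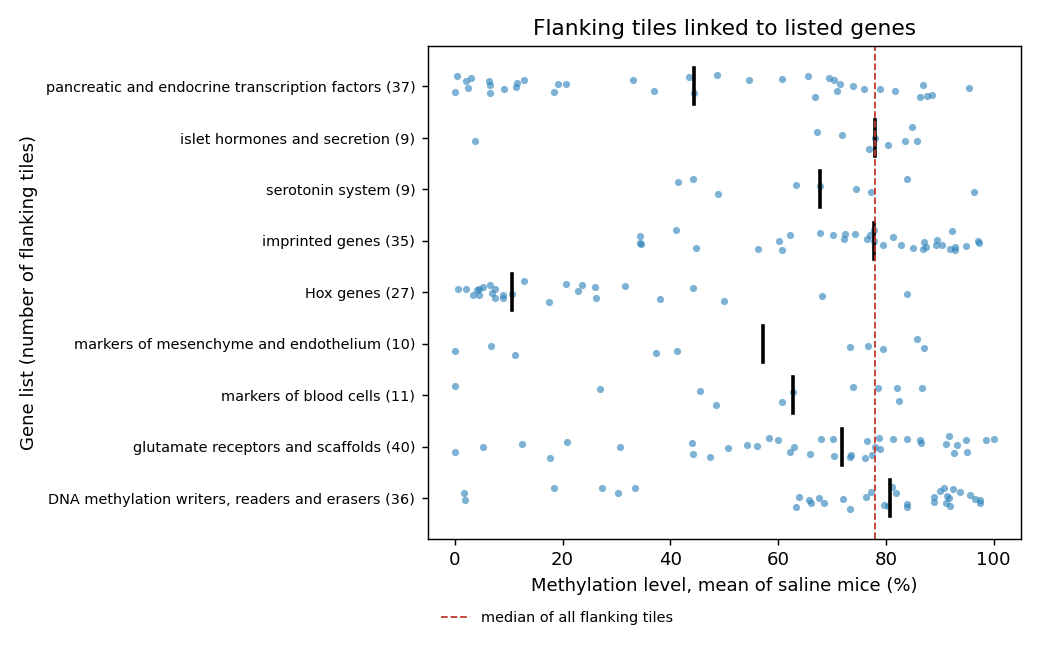
Methylation level in saline mice (x axis, %) of each flanking tile linked to a gene of a list (y axis, with the number of tiles); each point is a tile, the black bar the list's median and the dashed line the median of all flanking tiles. Hox tiles have a median of 10.6% and transcription factor tiles 44.4%, beside 78.0% for all flanks.

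The first comparison asked whether prenatal amphetamine changed methylation at flanks. No flank passed an adjusted p of 0.05 (limma moderated test rebuilt from the deposited summaries, Benjamini-Hochberg over 224555 tiles), where the share of all autosomal tiles that passed was 0%. The smallest adjusted p of a flank was 0.233. At an unadjusted p under 0.05 there were 652 of 13908 flanks tested, 287 higher (2.06%) and 365 lower (2.62%) in amphetamine mice, beside 1.72% and 2.62% of all 210397 autosomal tiles tested. The share in either direction was 4.69% for flanks and 4.34% for all tiles. The median difference was -0.029 percentage points at flanks and -0.072 over all tiles, with a median SE of 7.27 points at a single flank. A difference of a few points at a single flank was therefore not detectable with these mice.

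Groups that did not overlap were rare. Every amphetamine mouse lay above every saline mouse at 15 of 12069 flanks (0.124%, 0.15% of all tiles), and below at 23 (0.191%, 0.211% of all tiles). By distance from the island, the share at an unadjusted p under 0.05 ran from 4.23% to 5.29% without an order. Flanks with an absolute difference above 25 points numbered 474, had a median coverage of 31.2, and 190 of them had an unadjusted p under 0.05.

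Among flanks whose groups did not overlap, with reads in all 11 mice and a coverage of at least 30 in both groups, the largest positive difference was at Dsc2, which encodes the cell adhesion protein desmocollin, in chr18:20050001-20055000. Amphetamine mice had 77.3% ± 10.6 (n = 5), 61.5 to 87.5%, and saline mice 25% ± 22.4 (n = 6), 0 to 50%. The difference was 52.3 points (SE 10.5, adjusted p = 0.967 by limma). In an intron of Uvrag, an autophagy gene, chr7:99135001-99140000 had 57.0% ± 4.08, 50 to 60%, against 33.7% ± 7.70, 25 to 45.2%. An intergenic tile on chromosome 4 within the transcript Gm27247 had 90% ± 7.60 against 63.9% ± 7.32, with 7.65 points between the lowest amphetamine and the highest saline mouse. None of these passed the test, and their adjusted p was 0.967 each.

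Under the same limits, the largest negative differences were at Slc12a2, Chd3 and Tmem185b, again without a call. Upstream of Slc12a2, a sodium, potassium and chloride cotransporter gene, chr18:57870001-57875000 had 57.6% ± 15.8, 33.3 to 71.2%, in amphetamine mice and 99.4% ± 1.51, 96.3 to 100%, in saline mice. Its difference was -41.8 points (SE 6.48, adjusted p = 0.482 by limma). Beside Chd3, a chromatin remodeller gene, chr11:69370001-69375000 had 30.2% ± 8.42 against 64.0% ± 11.2. The Tmem185b flank had 66.5% ± 25.7 against 99.1% ± 1.82. In all 3 tiles the highest amphetamine mouse lay below the lowest saline mouse, and mean coverage was between 38.0 and 83.8 per group.

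**Figure D4:**
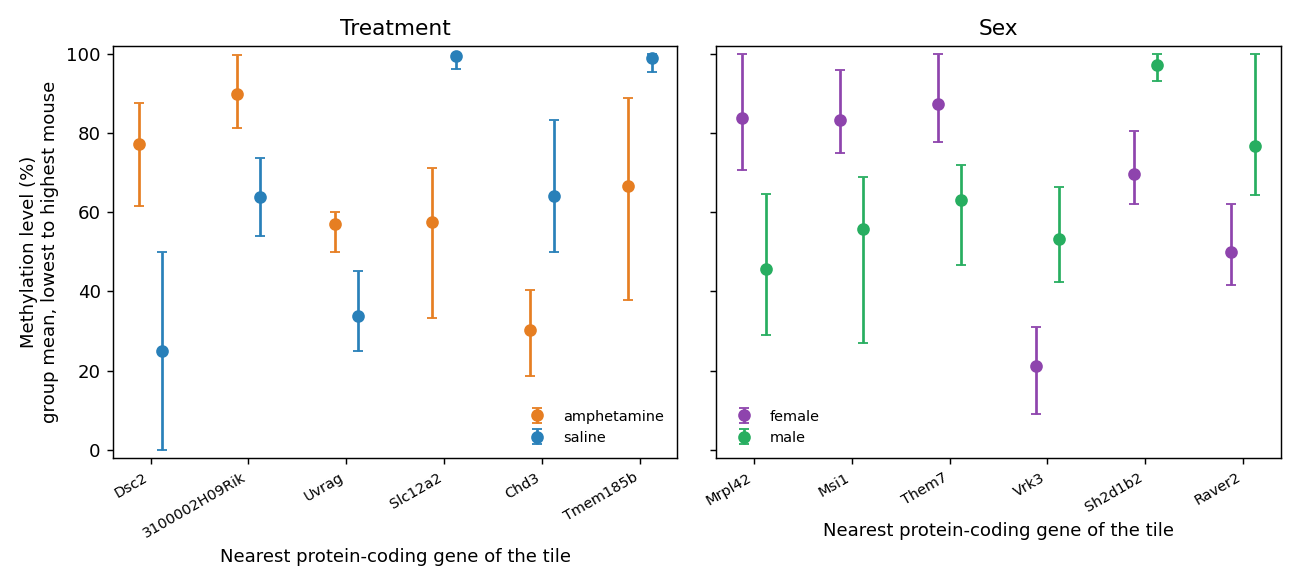
Methylation level (y axis, %, points are group means and bars run from the lowest to the highest mouse) at the flanking tiles with the largest differences among those whose groups do not overlap, named by the nearest gene start (x axis), for amphetamine and saline (left) and female and male (right). At Dsc2 the groups are 52.3 points apart in mean and at Vrk3 32.2 points, and no tile shown passed the adjusted test.

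No flank of a listed gene was called for treatment. Over all flanks tested, 49.0% were higher and 50.2% lower in amphetamine mice. Among transcription factors, 15 flanks were higher and 22 lower in amphetamine mice, with a median difference of -1.31 points. Of these 37 flanks, 6 had an unadjusted p under 0.05 by limma, beside 4.34% of all tiles. The upstream flank of Isl1, a factor of endocrine cells, had 50.3% ± 15.8 (n = 5) against 81.7% ± 14.7 (n = 6), with overlapping ranges of 25 to 66.1% and 59.8 to 100% (adjusted p = 0.967, limma). At Nkx6-1, a beta cell factor, the values were 83.7% ± 8.80 and 95.5% ± 6.39. A tile beside Neurog3, which starts endocrine differentiation, had 16% and 33.0%. Other flanks of these genes were higher in amphetamine mice, with 10.1% against 0.32% at Nr5a2, 8.75% against 2.04% at a Ptf1a tile and 22.4% against 18.4% at a Mafa tile. For Hox genes 11 were higher and 16 lower with 2 at an unadjusted p under 0.05, at Hoxc10 (8.74% ± 6.48 against 2.11% ± 1.85) and at Hoxd13 (6.00% against 0.51%). Glutamate receptors and scaffolds had 27 higher and 12 lower with 2, the smaller p at Grik4 (75.5% against 44.1%) and the other at Grik5 (82.4% against 93.3%). These 40 tiles belong to 18 genes, so they are not independent.

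The remaining lists, with 9 to 36 tiles tested, had 0 to 2 flanks each at that threshold, beside 4.34% of all tiles. For serotonin it was 1 of 9 tiles, at Slc6a4, the serotonin transporter that amphetamines act on. This flank within the gene had 91.9% ± 10.2 against 74.5% ± 12.8 (ranges 75 to 100% and 64.6 to 99%). The Htr7 flank had 87.7% and 96.4%. Imprinted genes had 2, a Gnas tile (97.2% against 70.1%) and a Trappc9 tile (94.7% against 85.1%). Blood cell markers had 2, at Tal1 (70.3% against 86.7%) and Vav1 (93.6% against 78.6%). Mesenchyme and endothelium had 1, beside Des (73.3% against 41.2%), whose other flank had 85.3% against 73.3%. Among DNA methylation genes 1 passed it, in Uhrf1 next to the Kdm4b island (78.5% against 91.8%), and the Cxxc1 flank had 83.6% against 93.9%. Islet hormones had none, the smallest p being at Pyy and Ppy (18.6% against 3.77%), and Abcc8, a subunit of the beta cell potassium channel, had 79.4% against 71.9%.

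The study's genes of interest had flanks without a called difference. Fev, a serotonergic transcription factor, had 69.3% ± 7.02 in amphetamine and 73.9% ± 13.6 in saline mice (difference -4.61, SE 7.16). Insm1, an endocrine factor, had 55.0% ± 37.1 and 71.5% ± 21.9 (n = 4 with reads). Ism1 had 81.5% and 77.6%, and Homer2, a glutamate receptor scaffold, 76.7% and 76.5%. In females and males the Homer2 flank had 79.0% and 73.7%. Lmx1b had 5 flanking tiles, 4 of them between 37.0% and 48.7% in saline and 1 at 86.4%, with treatment differences from -10.4 to 4.38 points. Ins1, Ins2, Htr1a and Gria1 had no flanking tile linked to them. The paper placed its hypomethylation of Lmx1b, Ism1 and Htr1a close to the gene start or promoter. Its figure legend names Insm1 where its text has Ism1, so the claim may concern either gene. The values here are means over whole 5000 bp tiles, a different measure.

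The second comparison asked whether flanks differed between females and males. No flank passed an adjusted p of 0.05, beside 0.00619% of all autosomal tiles (13 of 209995). Of the 115 tiles called over all chromosomes, 100 lay on chromosome X, where 324 tiles next to islands stayed outside the rule. The smallest adjusted p of a flank was 0.102. At an unadjusted p under 0.05 there were 754 of 13722 flanks, 439 higher in females (3.2%, against 3.34% of all tiles) and 315 lower (2.3%, against 1.88%). The share in either direction was 5.49% for flanks and 5.22% for all tiles.

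Flanks lay between islands and the rest of the genome in their sex difference. The median of female minus male was 0.327 percentage points at flanks, 0.913 at tiles farther away, -0.052 at tiles with an island and 0.672 over all tiles tested. Females were higher at 51.9% of flanks and at 54.9% of all tiles. Mean coverage also differed, with medians of 90.5 in females and 82.0 in males at flanks, and its part in this was not tested. At flanks under 500 bp from the island the median difference was 0.020, and from 500 bp on it was between 0.278 and 0.716. All of these are small beside the median SE of 7.22 points at a single flank. The plot of differences shows both comparisons centred near 0.

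**Figure D5:**
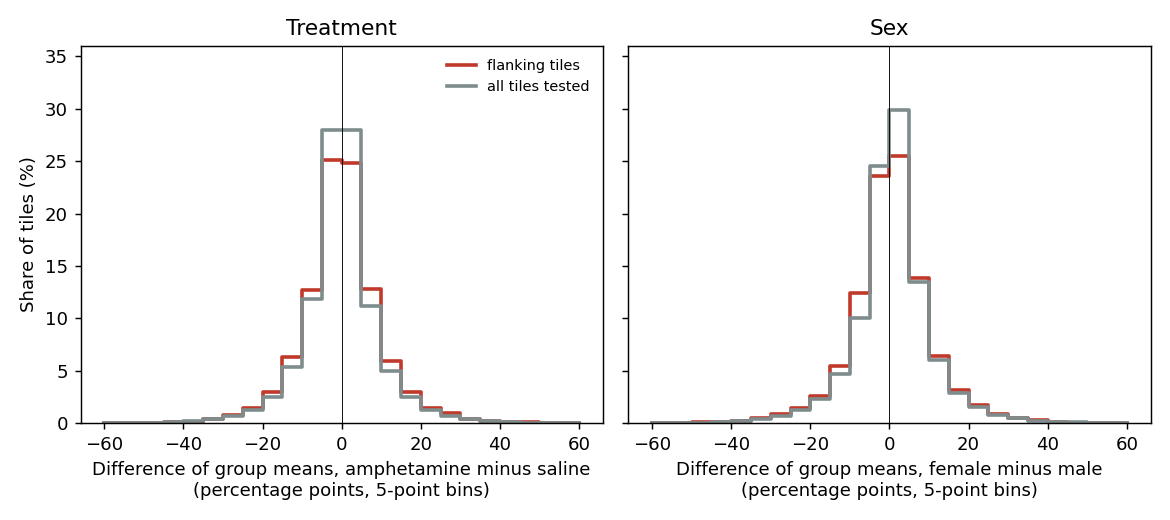
Share of tiles (y axis, %) by difference of group means (x axis, percentage points, bins of 5 points, shown from -60 to 60) for amphetamine minus saline (left) and female minus male (right), in flanking tiles and in all autosomal tiles tested. Medians lie at -0.029 for treatment and 0.327 for sex in flanking tiles.

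Every female lay above every male at 35 of 12069 flanks (0.29%, 0.337% of all tiles) and below at 21 (0.174%, 0.144% of all tiles). Under the limits used for treatment, the largest positive difference was in an intergenic tile between Mrpl42, a mitochondrial ribosomal protein gene, and Ube2n, chr10:95505001-95510000, whose island-facing bases are printed above. Females had 83.7% ± 12.2 (n = 6), 70.8 to 100%, and males 45.7% ± 15.7 (n = 5), 28.9 to 64.7%, a difference of 38.1 points (SE 8.56, adjusted p = 0.448 by limma). In Msi1, an RNA-binding protein gene of progenitor cells, chr5:115445001-115450000 had 83.4% ± 9.35 and 55.6% ± 16.4. In an intron of Them7 the values were 87.4% ± 7.56 and 63.0% ± 10.1.

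Lower in females was the tile chr7:44740001-44745000 in the zinc finger gene Zfp473, next to the Vrk3 promoter island and also printed above. Females had 21.0% ± 9.0, 9.17 to 31.0%, and males 53.3% ± 10.6, 42.4 to 66.4%, a difference of -32.2 points (SE 5.87, adjusted p = 0.178 by limma). At Sh2d1b2, a gene of natural killer cells, chr1:170250001-170255000 had 69.6% ± 8.28 in females and 97.1% ± 3.38 in males, and its adjusted p of 0.102 was the smallest of any flank. In Raver2, an RNA-binding protein gene, females had 50% ± 8.70 and males 76.7% ± 14.3. Mean coverage in these 6 tiles was between 52.2 and 188 per group.

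By gene list the sexes gave no called flank either. Transcription factor flanks were higher in females at 11 and lower at 25 of 36 tested, with 1 at an unadjusted p under 0.05. Over all autosomal tiles tested, 5.22% were at that threshold and females were higher at 54.9%. Imprinted genes were higher at 10 and lower at 25 of 35 tested. At that threshold there were 3, at Plagl1, at the H13 promoter and inside H13. The last of these had 58.7% ± 17.1 in females and 28.5% ± 15.0 in males, a difference of 30.2 points (SE 9.44, unadjusted p = 0.00843 by limma). Hox genes were higher at 14 and lower at 13 with 1. Blood cell markers had 2 of 11, both described here after their values were seen. In Spi1, which encodes a myeloid transcription factor, chr2:91110001-91115000 had 74.7% ± 18.2 in females (n = 6) and 8.33% ± 16.7 in males (n = 4 with reads), at a saline coverage of 26.8 (adjusted p = 0.133 by limma). At Lcp1, an actin-bundling protein gene of blood cells, the values were 42.4% ± 18.8 and 80.8% ± 22.3. Glutamate genes and DNA methylation genes 1 each, and the serotonin, islet hormone and mesenchyme lists none.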

How the data were processed

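For the 11 RRBS libraries, the authors cut pancreas DNA with MspI and TaqI before bisulfite conversion and sequencing. They aligned the reads to mm10 with Bismark (version not given in the sources used here) in the NextFlow methylseq pipeline. Regions were summarised with RnBeads, also by the authors. The deposited tables hold, per group and region, the methylation as a fraction that the authors averaged over mice (given as a percent in the text), the authors' SD and the lowest and highest mouse, entered here as a score, and coverage as a signal averaged over mice and not normalized for depth. Depth per mouse was not analysed here, and the number of reads limits the precision of each tile. The authors' own columns of differences, quotients, p-values and ranks were not used. Only islands listed in the deposited island table counted, so a flank may hold an island that had no row there.

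Flanking tiles were found as described above, and members and gene lists were chosen with earlier results of these data known. Groups came from the labelled treatment and sex. Each comparison was fitted over all tiles with a coverage of at least 10 in both groups and at least 3 mice with reads per group, by limma's moderated test (limma 3.58.1, R 4.3.3, two-sided, variance trend on mean methylation) rebuilt from mean, SD and n, which was tested on simulated data. P-values were adjusted by the Benjamini-Hochberg method over all tiles fitted, and 53 flanks for treatment and 239 for sex had too few mice or reads to be tested. Groups that do not overlap were counted over tiles with reads in all mice. Gene positions came from GENCODE and sequences from GRCm38, the assembly of mm10. A tile is linked to a gene whose body it overlaps or whose promoter overlaps its island. Named tiles are, per comparison, the 3 largest differences in each direction among flanks with reads in all mice, coverage of at least 30 and groups that do not overlap; the 3 lowest and highest with coverage of at least 100; the 5 largest SDs; and 2 per gene list with the smallest p for treatment. Some tiles and sequences that these rules choose are not reported here.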

Additional observations from a re-analysis of the deposited data

How the results depend on the processing

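For both comparisons the count of called flanks was 0 with no variance trend, coverage of at least 30, no coverage minimum, reads in all mice, chromosomes 1 to 19 only, similar coverage in both groups, SDs above 0 and an adjusted p under 0.1. On the logit scale limma called 12 flanks for treatment and 26 for sex. All had a group mean at or below 1% or at or above 99%. Of them, 12 and 23 had an SD of 0 in a group. The share of all tiles called on that scale is not given here, so these counts say nothing particular to flanks. An unadjusted p under 0.05 gave 652 for treatment and 754 for sex. Groups without overlap fell from 38 to 7 flanks for treatment and from 56 to 13 for sex with a gap of at least 5 points. At similar coverage in both groups (ratio of at least 0.8 either way) they numbered 18 for treatment, of fewer tiles (5891). The mean flank level weighted by coverage was 66.2%, beside the unweighted median of 78.0%. This alternative replaced the median by a mean as well as adding weights, so the gap cannot be put down to weighting alone. The part of each was not tested. The median range of saline mice was 29.3 points in place of the SD of 11.2. Under the other alternatives the median flank level was between 73.9% and 78.2%. The median difference was between -0.104 and -0.061 points for treatment and between 0.313 and 0.441 for sex. The median SD was 10.8 points at a coverage of at least 30 and 10.4 over amphetamine mice. Leaving out each mouse was not run, since it needs values per mouse. No paired analysis was possible because the groups share no labelled pairing.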
